A study of Mus musculus with 8 samples.

Results

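The mRNAs of 10 transcription factors known from the oocyte and from pluripotent cells were followed between the non-polysomal (NP) and the polysomal (P) part of sucrose gradients of mouse oocytes. They were chosen by gene symbol, and all 10 symbols (Nobox, Figla, Lhx8, Sohlh1, Sohlh2, Foxo3, Pou5f1, Sox2, Sall4 and Stat3) were found among the 25574 genes of the table. The study asked which maternal mRNAs are bound to polysomes when the oocyte resumes meiosis. Fully grown oocytes of CD1 mice 8 weeks old, isolated 46 h after 5 IU of pregnant mare serum gonadotropin and held in 100 µM IBMX, an inhibitor of nuclear envelope breakdown, were denuded and cultured without IBMX for 180 min. They reached nuclear envelope breakdown (NEBD) and were treated with 0.1 mg/ml cycloheximide, which holds ribosomes on mRNA, for 10 min. A lysate of 200 oocytes was run on each gradient and collected as 10 fractions, of which fractions 2 to 5 were pooled as NP and fractions 6 to 10 as P, giving 4 libraries per dataset (NP1 to NP4 and P1 to P4). All 8 libraries therefore share genotype, age, hormone and drug treatment, and differ by the position in the gradient. By the paper, NP also covers the peaks of ribosomal subunits and single ribosomes. The first fraction was left out, and the paper allows that it held a small part of the stored mRNA particles. It could not exclude that heavy stored particles sediment with the polysomes.

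Nobox, Figla, Lhx8, Sohlh1 and Sohlh2 are germ cell factors that drive the genes of the growing oocyte, among them the zona pellucida genes, and Foxo3 keeps primordial follicles dormant until PI3K signalling moves it out of the nucleus. Pou5f1 (OCT4), Sox2 and Sall4 belong to the pluripotency network, and Stat3 carries LIF signals to it. At NEBD the oocyte is transcriptionally silent, so the mRNAs measured were made earlier, and a stored mRNA is commonly brought onto polysomes through lengthening of its poly(A) tail. This lengthening depends on a hexamer poly(A) signal and on a U-rich cytoplasmic polyadenylation element (CPE) in the 3′ UTR.

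The 3′ UTRs of these factors differed in both features. They were read on the sense strand of the GENCODE M21 annotation of GRCm38, the build to which the reads had been mapped, for the letters TTTTAT or TTTTAAT (CPE) anywhere and AATAAA or ATTAAA (poly(A) signal) in the last 40 bases. Nobox, with a 3′ UTR of 281 bases, Figla with 120, Pou5f1 with 221 and Sohlh1 with 162 held no CPE letters. Foxo3 held 5 copies in 4490 bases, Sall4 3 in 1697, Sohlh2 3 in 921, Sox2 3 in 1086, Lhx8 2 in 637 and Stat3 2 in 1895. Of 11555 tested genes with an annotated 3′ UTR, 59.3% held at least 1 copy, the median 3′ UTR was 978 bases, and 18.8% held a copy in the last 100 bases. Sohlh2 had 2 copies in the last 100 bases and was the member with CPE letters nearest to the 3′ end. The sites printed here are the 3 of Sohlh2, those nearest to the 3′ end in Foxo3 and Sall4, and the poly(A) signals of Figla and Pou5f1 because they show both kinds of 3′ UTR among the factors. Each is written 5′ to 3′ in the sense of the mRNA with the motif in capitals.
Sohlh2 CPE, chr3:55209837-55209864, plus strand: aaggatggctgTTTTATatttcactgaa
Sohlh2 CPE, chr3:55209871-55209898, plus strand: ttacacaaacaTTTTATtgttaaagtgt
Sohlh2 CPE, chr3:55209930-55209957, plus strand: taataaaatgttttctcTTTTATaataa
Foxo3 CPE, chr10:42182529-42182556, minus strand: ctcttgttgaaTTTTATtcatttgtatt
Sall4 CPE, chr2:168748766-168748793, minus strand: tttgtttttgtTTTTAATtacatttttg
Figla poly(A) signal, chr6:86020959-86020986, plus strand: tgtaaaatataATTAAAatgagatgata
Pou5f1 poly(A) signal, chr17:35510737-35510764, plus strand: ttttgttcttaAATAAAgactgggacac
The last of the Sohlh2 windows also holds the poly(A) signal of that gene, in lower case, and the distance from the start of its CPE to the 3′ end was 11 bases. Nobox was the only one of the 10 factors without either poly(A) signal in the last 40 bases, where 76.2% of the tested genes had one. The letters are a description of the annotated transcript, and no use of a site was measured.

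Values are FPKM, fragments scaled to the length of the gene and to the number of mapped reads. Being per length, they were compared between genes within a library. Differences between genes in the whole transcriptome amplification, which all libraries would share, were not tested. The numbers of reads to which the libraries had been scaled were recovered from the steps between low values. They ranged from 1299377 (NP2) to 7594637 (NP4) in NP and from 2677946 (P4) to 4699328 (P1) in P. In each library the reads recovered over genes summed to more than this number, such as 2130441 in NP2 and 12441931 in NP4. How fragments were counted is not stated, so read numbers given here are approximate. Genes above 0 numbered 11703 to 13753 in NP and 9139 to 11339 in P. The summed FPKM of 12 oocyte markers was 5770 to 12230 in NP and 8557 to 33790 in P. That of 16 granulosa and cumulus cell markers was 6.86 to 129 in NP and 17.2 to 62.6 in P. None of the 10 tested was called, beside 0.021% of all genes. Of these markers Cyp19a1 measured 0.190 to 75.2 FPKM, Cyp11a1 reached 46.4 FPKM in NP4 and 17.9 in P4, Kitl 2.76 in NP4 and 10.3 in P3, Tnfaip6 6.84 in P3 and Star 3.40 in NP4, whereas Foxl2, Amhr2, Inhba and Has2 were at 0 in all 8 libraries. The part of such cells in the values of the factors was not tested. Fold changes are P over NP on the log2(FPKM + 1) scale, fitted with limma over the 14292 genes with a mean above 0.1 FPKM in at least 1 dataset. A gene was called at a Benjamini-Hochberg adjusted p below 0.1. Each library is a bulk pool, so fewer oocytes holding an mRNA and less of it per oocyte cannot be told apart, and FPKM gives a share of a library rather than an amount.

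Of the 10 factors, 8 passed this filter, Sohlh1 and Sox2 did not, and none of the 8 was called. Over all genes, 3 were called (0.021%), all lower in P, and 9.47% were lower in P at an unadjusted p below 0.05, which 2 of the 8 factors were, Nobox and Figla, whereas 0.476% were higher in P at that level and none of the factors. Their 4 NP values also lay above their 4 P values, which was so for 5.92% of all genes tested, and no factor had its P values above its NP values, as 0.357% of genes did. The 8 factors had a median log2 fold change of −0.87 beside −0.39 over all genes, and 6 of 8 were below 0, as were 71.4% of all genes. The P libraries also detected fewer genes than the NP libraries, and the part of this in the shift of all genes was not tested. The distance of a factor from the median of all genes is given beside its fold change where it matters.

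**Figure D1:**
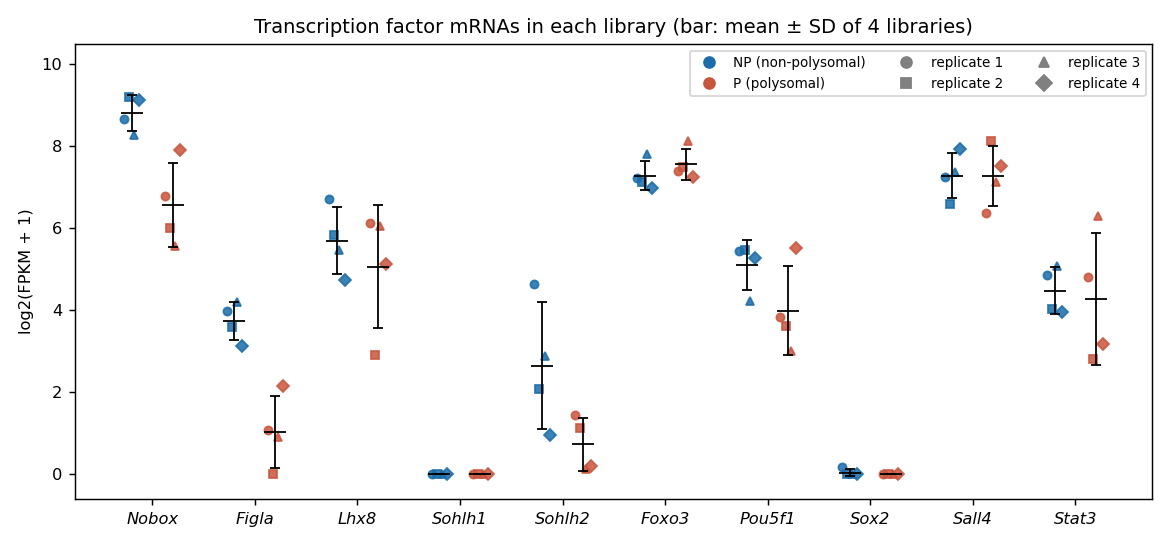
Level of each factor, as log2(FPKM + 1), in the 4 NP (blue) and 4 P (red) libraries, with symbols for the replicate number and bars for the mean ± SD. Nobox and Figla show NP points above all P points, Foxo3 and Sall4 nearly coincide, and Sohlh1 is at 0 throughout.

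Nobox, a homeobox factor needed for the growth of the first follicles, was the most abundant of the 10 in NP and had the lowest p of the 8 tested. It measured 405.7, 591, 308 and 560 FPKM in NP1 to NP4, and 109, 63.2, 46.6 and 241 FPKM in P1 to P4. The lowest NP library, NP3, stood above the highest P library, P4, so the datasets did not overlap. The means were 466 ± 133 in NP and 115 ± 88.0 in P (SD, n = 4 each), a 4.06-fold lower mean in P that ranged from 3.39-fold without P3 to 6.40-fold without P4. The values rest on 1460 to 8080 reads in NP and 385 to 1226 in P. In limma the log2 fold change was −2.25 (SE 0.60, unadjusted p = 0.00226, adjusted p = 0.376), which minus the median of all genes was −1.86. Only 3.75% of the genes tested had a lower fold change, and Nobox ranked 82 by p. Its 95% interval ran from −3.55 to −0.96. With voom on the recovered reads, an alternative added after the values were seen, the adjusted p was 0.12, so that Nobox was not called there either.

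Figla, a basic helix-loop-helix factor that activates the zona pellucida genes, was much less abundant and had the lowest log2 fold change of the 8. It measured 14.9, 11.2, 17.4 and 7.81 FPKM in NP and 1.12, 0, 0.889 and 3.44 FPKM in P. All 4 NP libraries lay above all 4 P libraries, with P4 the highest and P2 without a read, where 3 reads would have given 1.23 FPKM. Mean FPKM was 12.8 ± 4.196 in NP and 1.36 ± 1.47 in P (SD, n = 4 each), and the mean was 9.39-fold lower in P, with a range from 7.04-fold without P2 to 19.1-fold without P4. The P values rest on 0 to 7 reads a library, so their relative error is large. The log2 fold change was −2.69 (SE 0.84, unadjusted p = 0.0066, adjusted p = 0.405 in limma, 95% interval −4.51 to −0.88). Minus the median of all genes it was −2.30, and 1.65% of genes had a lower one. For a gene so near 0 the size depends on the pseudocount: with 0.1 the log2 fold change was −3.93, and with voom on the recovered reads −3.59.

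Sohlh2, a helix-loop-helix factor of early oocyte differentiation, was low in both datasets and its libraries overlapped. It measured 24.0, 3.26, 6.39 and 0.947 FPKM in NP and 1.71, 1.19, 0.0952 and 0.158 FPKM in P. NP1 alone held 69.4% of the summed NP level, and NP4 lay below P1 and P2. The log2 fold change was −1.92 (SE 0.91, unadjusted p = 0.0532, adjusted p = 0.506 in limma), with 1 to 19 reads in each P library, and the 10.97-fold lower mean in P became 4.48-fold without NP1 and 18.0-fold without P1. The log2 fold change was −3.05 with a pseudocount of 0.1 and −2.96 with voom. Sohlh1, its partner in that step, was at 0 in all 8 libraries, which allows at most 0.307 to 1.79 FPKM from 3 reads, depending on the library.

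Lhx8, a LIM homeobox factor required for follicle formation, was present at 25.9 FPKM or more in all libraries but P2 and varied widely within each dataset. It measured 104, 56.6, 43.6 and 25.9 FPKM in NP and 69.0, 6.56, 66.0 and 34.2 FPKM in P. P2 was the lowest of the 8 libraries, whereas P1 and P3 lay above the other NP libraries apart from NP1, so that the datasets overlapped. The log2 fold change of −0.63 (SE 0.78, adjusted p = 0.741 in limma) turned to 0.080 without P2.

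Foxo3 and Sall4 were, with Nobox, the abundant factors, and their mean levels in NP and P were close. Foxo3, the forkhead factor of follicle dormancy, measured 149, 140, 223 and 126 FPKM in NP and 167, 179, 278 and 152 FPKM in P. The highest library of each dataset was replicate 3, and the datasets overlapped while every P library lay above the NP library of the same number. The means of 159 ± 43.4 and 194 ± 56.9 (SD, n = 4 each) gave a log2 fold change of 0.28 (SE 0.51, adjusted p = 0.821 in limma, 95% interval −0.82 to 1.37), 0.67 above the median of all genes, and 82.3% of genes had a lower one. It had the smallest spread of the 8 factors tested, with a coefficient of variation of 27.2% in NP and 29.3% in P.

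Sall4, a zinc finger factor of germ cells and pluripotent cells, measured 151, 95.4, 164 and 244 FPKM in NP and 82.1, 277.5, 138 and 183 FPKM in P. The highest and the lowest of the 8 libraries were both P libraries, P2 and P1, and the datasets overlapped over most of their range. The means were 164 ± 61.4 in NP and 170.2 ± 82.6 in P, with a log2 fold change of 0.00 (SE 0.57, adjusted p = 0.9997 in limma). The 95% interval of −1.22 to 1.23 covers differences of either sign. A stretch of 467 bases of its transcript has 90.2% identity to a stretch on chromosome X, and part of its exons lies opposite the low gene Gm14261 (mean 4.21 FPKM in NP and 8.53 in P).

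Pou5f1, the central pluripotency factor and a marker of the oocyte, had 3 low P libraries and a high one. It measured 42.9, 43.7, 17.6 and 37.6 FPKM in NP and 13.2, 11.2, 7.08 and 45.2 FPKM in P. P4 was the highest of all 8 libraries, while the other P libraries lay below every NP library. The log2 fold change was −1.11 (SE 0.71, unadjusted p = 0.142, adjusted p = 0.60 in limma), and the ratio of NP to P means moved from 1.85 to 3.38 without P4. Its values are uncertain in origin. Exons of Gm19553 overlap its exons on the opposite strand, and the kit does not mark strand. In addition, a run of 385 bases is 100% identical to a stretch on chromosome 1. Gm19553 measured 39.3, 38.9, 19.7 and 57.8 FPKM in NP and 12.1, 8.84, 9.11 and 42.3 FPKM in P, with the same P library standing out.

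Stat3, the effector of LIF and interleukin 6 receptors, measured 28.2, 15.3, 32.7 and 14.6 FPKM in NP and 27.0, 6.06, 77.9 and 8.04 FPKM in P. The mean was higher in P (29.8 against 22.7 FPKM in NP), although the log2 fold change given next is below 0. P3 held 65.5% of the summed P level, and the 2 lowest libraries were P as well. The spread in P (CV 112.5%) thus exceeded the difference of the means. The log2 fold change was −0.21 (SE 0.82, adjusted p = 0.919 in limma), and its exons overlap those of Stat5a on the opposite strand (mean 6.64 FPKM in NP and 7.87 in P). Sox2, the partner of Pou5f1 on DNA, was listed at 0.128 FPKM in NP1 and at 0 in the other 7 libraries. There 3 reads would have given about 0.192 to 1.12 FPKM on its annotated length of 2057 bases. No difference was detectable at this depth.

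**Figure D2:**
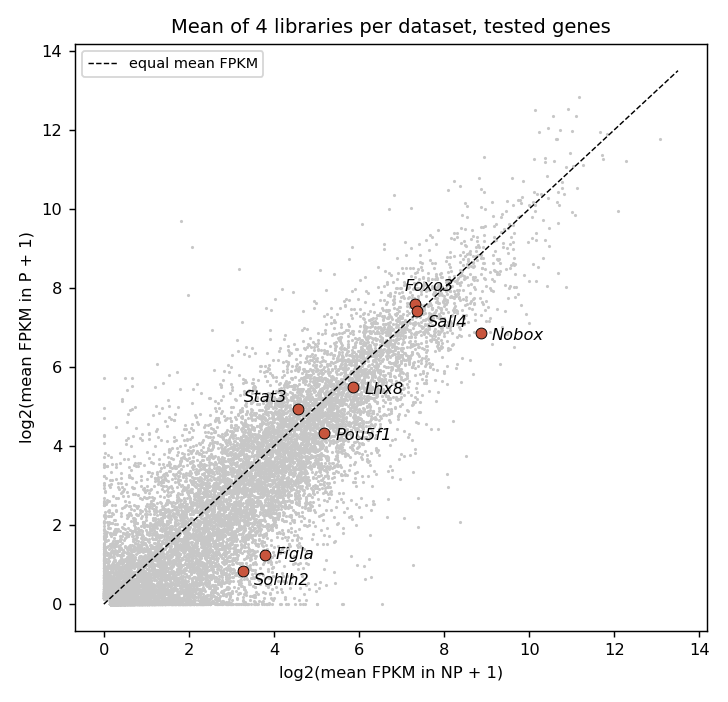
Mean level in P against mean level in NP, both as log2(mean FPKM + 1) of 4 libraries, for the genes tested (grey) and 8 factors (red), with a dashed line of equal means. Nobox, Figla and Sohlh2 lie below the line, and Foxo3 and Sall4 lie on it at nearly the same height.

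The order of the factors differed between the datasets. In NP, mean FPKM ran from Nobox through Sall4, Foxo3, Lhx8, Pou5f1, Stat3, Figla and Sohlh2 to Sox2. Nobox was 2.85-fold above Sall4 and Foxo3 2.77-fold above Lhx8, each without overlap of the libraries, whereas Sall4 and Foxo3 (1.03-fold) and the neighbours from Lhx8 to Sohlh2 (1.48-fold to 1.77-fold) overlapped. In P, the order ran Foxo3, Sall4, Nobox, Lhx8, Stat3, Pou5f1, Figla and Sohlh2. Only Pou5f1 and Figla, 14.1-fold apart, did not overlap as neighbours. Nobox thus stood first in NP and behind Foxo3 and Sall4 in P, the factors it exceeded in all NP libraries.

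The position of Nobox relative to these abundant factors was compared within each library. There a scaling of the whole library cancels but for the pseudocount of 1 FPKM added on the log2 scale. Both pairs were chosen with earlier results of these data known, and Nobox had the lowest p of the factors tested. The p-values of the ratios are therefore descriptive and give no separate evidence of a difference. The ratio of Nobox to Foxo3 was 2.73, 4.23, 1.38 and 4.43 in NP and 0.653, 0.353, 0.168 and 1.58 in P. P4 lay above NP3, so the datasets overlapped for this ratio. On the log2 scale its mean was 1.53 ± 0.78 in NP and −0.997 ± 1.36 in P (SD, n = 4 each), a 5.76-fold lower ratio in P with p = 0.0571 in a two-sided exact permutation test over 70 assignments.

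The ratio of Nobox to Sall4 was 2.69, 6.20, 1.88 and 2.29 in NP and 1.33, 0.228, 0.338 and 1.32 in P. The 4 NP ratios were all above the 4 P ratios. The log2 means were 1.53 ± 0.75 in NP and −0.72 ± 1.31 in P (SD, n = 4 each), a 4.76-fold lower ratio in P with p = 0.0286 in the two-sided exact permutation test, the smallest that 4 against 4 can give. Over both ratios the Benjamini-Hochberg adjusted p was 0.0571 for each, and this adjustment does not cover the choice of the pairs. Leaving out any 1 library kept the direction but could not give a p below 0.0571. With the libraries of the same number taken as pairs, the exact p was 0.125 for either ratio, the smallest that 4 pairs allow.

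**Figure D3:**
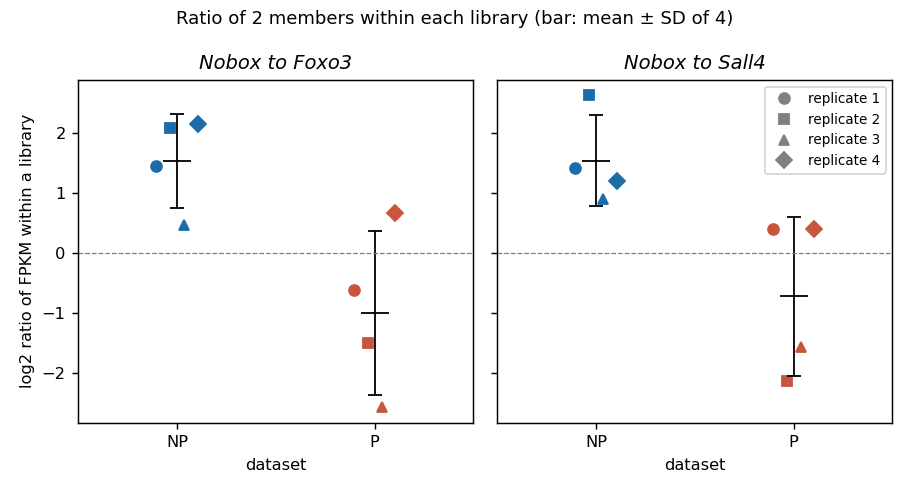
Log2 ratio of Nobox to Foxo3 (left) and to Sall4 (right) within each library, with symbols for the replicate number and bars for the mean ± SD of 4. Ratios lie above 0 in all NP libraries, and in P only P4 does so in both panels and P1 in the right one.

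How the libraries were scaled changed several of these values. The median over genes with a mean above 1 FPKM in at least 1 dataset was higher in the NP than in the P libraries (7.42 to 10.0 against 3.42 to 6.77 FPKM), and scaling each library to one median moved the median log2 fold change of all genes from −0.39 to −0.03, while quantile normalization moved it to −0.02. Under median scaling Nobox had a log2 fold change of −1.36 (unadjusted p = 0.059, adjusted p = 0.639) and its datasets overlapped, with P4 at 468 FPKM. Figla stayed without overlap under both (−2.08 and −2.06). Foxo3 came to 1.17 (unadjusted p = 0.0424, adjusted p = 0.630) under median scaling, and its 4 P libraries, at 164 FPKM or more, then lay above the 4 NP libraries, at 148 or less. Lhx8 turned to 0.23 under median scaling, and Stat3 to 0.63 under median scaling and 0.26 under quantile normalization. Nobox, Figla, Sohlh2 and Pou5f1 stayed below 0 and Foxo3 above 0 in all 16 alternatives run.

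**Figure D4:**
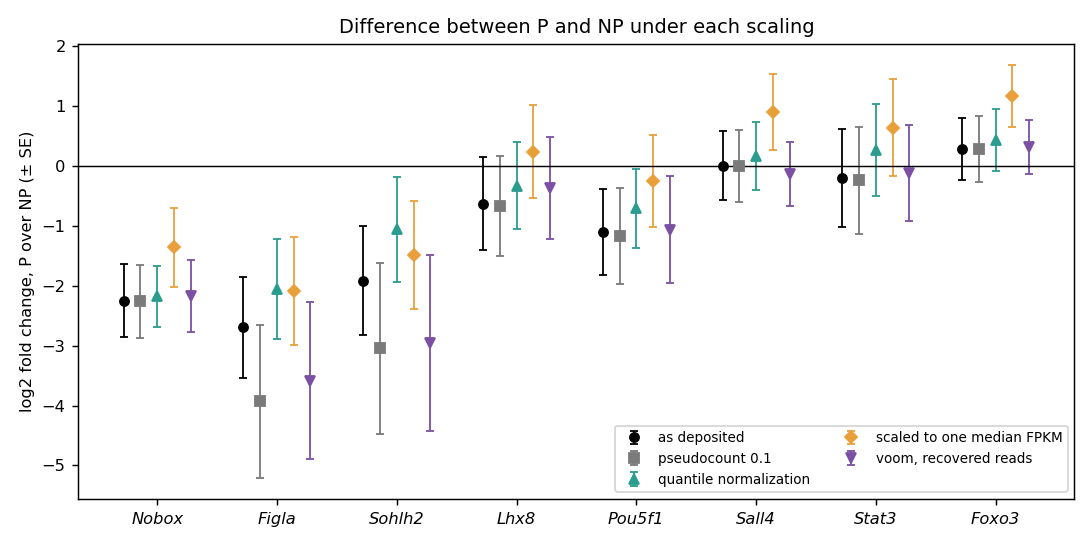
Log2 fold change, P over NP, of 8 factors with its SE under 5 treatments of the values: as deposited, pseudocount 0.1, quantile normalization, scaling to one median FPKM, and voom on recovered reads. Nobox, Figla and Sohlh2 lie below 0 under each, Foxo3 lies above 0, and the signs of Lhx8, Sall4 and Stat3 change.

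Genes with the most similar course over the 8 libraries were sought for the 3 most abundant factors among 5638 genes with a mean above 10 FPKM, as the root mean square difference of centred log2(FPKM + 1) values. Nobox was closest to Rpl35, a ribosomal protein gene (difference 0.278, against a median of 1.58), Rhbg, an ammonium transporter gene, and Ckb, the brain creatine kinase gene. Rpl35 measured 41.9 to 95.5 FPKM in NP and 4.71 to 43.9 FPKM in P, with P4 the highest P library as for Nobox. Foxo3 was closest to Arfip1, Gm12592 and Shroom2 (0.226 to 0.230, median 1.24), and Sall4 to Slc25a15, Tmem50a and Osbpl8 (0.262 to 0.328, median 1.35). These are likenesses over 8 libraries that share dataset and depth.

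Of 22 other factors of the same families or known partners, 13 were tested. None was called by limma, beside 0.021% of all genes, or by voom, beside 124 of 12899 genes. Tbpl2, an oocyte TBP-like initiation factor, measured 82.5, 20.6, 47.5 and 25.8 FPKM in NP and 7.87, 1.13, 3.43 and 0.271 FPKM in P. Its log2 fold change of −3.61 (SE 0.84, unadjusted p = 0.000734, adjusted p = 0.344) was below that of any of the 10 factors, without overlap. Sall2 (3.82 ± 1.16 against 1.13 ± 0.675 FPKM, log2 fold change −1.21) and Lhx2 (1.34 ± 0.896 against 0.156 ± 0.197 FPKM, log2 fold change −0.96), of the families of Sall4 and Lhx8, also had 4 NP libraries above 4 P libraries. Foxo1, a paralog of Foxo3, measured 20.6 ± 12.6 FPKM in NP and 36.2 ± 37.6 in P, and Nr5a2 24.1 ± 25.1 and 13.3 ± 16.6. Unadjusted p was below 0.05 for 2 of the 13, Tbpl2 and Lhx2, beside 9.47% of all genes lower in P at that level, and the 3 without overlap stand beside 5.92% of all genes. Dmrt1, Foxo4, Foxo6, Sall3 and Lhx1 were at 0 in all libraries.

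The oocyte genes that these factors are known to control or accompany included the abundant mRNAs of Gdf9, Zp3 and Bmp15. All 20 were tested, none was called, beside 0.021% of all genes, and 5 lay below the median of all genes. None had datasets without overlap, beside 5.92% of all genes with NP above P and 0.357% with P above NP. Their median log2 fold change was 0.20 beside −0.39 over all genes. Gdf9, a growth factor of the oocyte, measured 985 to 2673 FPKM in NP and 8080, 2536, 1562 and 11340 FPKM in P, with a log2 fold change of 1.30 (SE 0.69, adjusted p = 0.533). Zp3, a zona pellucida gene under Figla, measured 432 to 2708 FPKM in NP and 4766, 938, 778 and 7486 in P (log2 fold change 0.79), and Bmp15, the partner of Gdf9, 991 to 1928 and 1305 to 4109 (log2 fold change 0.82). P1 and P4 stood above the other P libraries for Gdf9 and Zp3, and P2 and P3 lay within the range of NP. The gene with an unadjusted p below 0.05 was Ddx4, the germ cell RNA helicase, at 20.1 ± 15.4 FPKM in NP and 4.51 ± 5.36 in P (log2 fold change −2.33, unadjusted p = 0.0336, adjusted p = 0.47).

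The pluripotency network around Pou5f1, Sox2 and Sall4 was sparse. Of 26 genes, 16 were tested. None was called, beside 0.021% of all genes, and none had an unadjusted p below 0.05 in limma. Of the 26, 9 were at 0 in all 8 libraries, among them Nanog, Klf5, Prdm14 and Otx2. The median log2 fold change was −0.25, beside −0.39 over all genes. At an unadjusted p below 0.05, 9.47% of all genes were lower and 0.476% higher in P. The most abundant were Dppa5a, an RNA-binding protein gene (118 ± 129 FPKM in NP, 164 ± 206 in P), Trim28, a corepressor (78.0 ± 35.9 and 98.2 ± 87.8), and Lin28a, which binds let-7 precursors (72.9 ± 24.7 and 86.3 ± 79.9), each with overlapping datasets.

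No gene of the pathways upstream of Foxo3 and Stat3 was called, beside 0.021% of all genes tested. All 23 genes from Kit and its ligand through PI3K and AKT to 14-3-3 proteins were tested. Of these, 19 had a log2 fold change below 0, as did 71.4% of all genes tested. The median was −0.63, beside −0.39 over all genes. Kit, the receptor, measured 280.2 ± 120.0 FPKM in NP and 241 ± 140.0 in P, Akt1 75.2 ± 40.03 and 107 ± 87.8, and Ywhag, a 14-3-3 protein, 247 ± 236 and 127 ± 71.5. Of 32 genes of the JAK-STAT pathway, 25 were tested, 17 lay below 0 and the median was also −0.63. Il6st, the shared receptor gp130, measured 325 ± 137 FPKM in NP and 218 ± 105 in P, Socs7 95.2 ± 35.4 and 154 ± 140.4, and Pias1, a SUMO ligase, 122 ± 16.3 and 181 ± 118, whereas the ligands Lif, Il6 and Lep and the inhibitors Socs2 and Cish were at 0 in all libraries. Kitl, the ligand of Kit, was at 0 in all libraries but NP4 and P3. In both pathways no gene had an unadjusted p below 0.05 in limma, where 9.47% of all genes were lower and 0.476% higher in P. No datasets were without overlap, beside 5.92% of all genes with NP above P and 0.357% with P above NP. Voom called no gene of either pathway, beside 124 of 12899 genes over all.

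**Figure D5:**
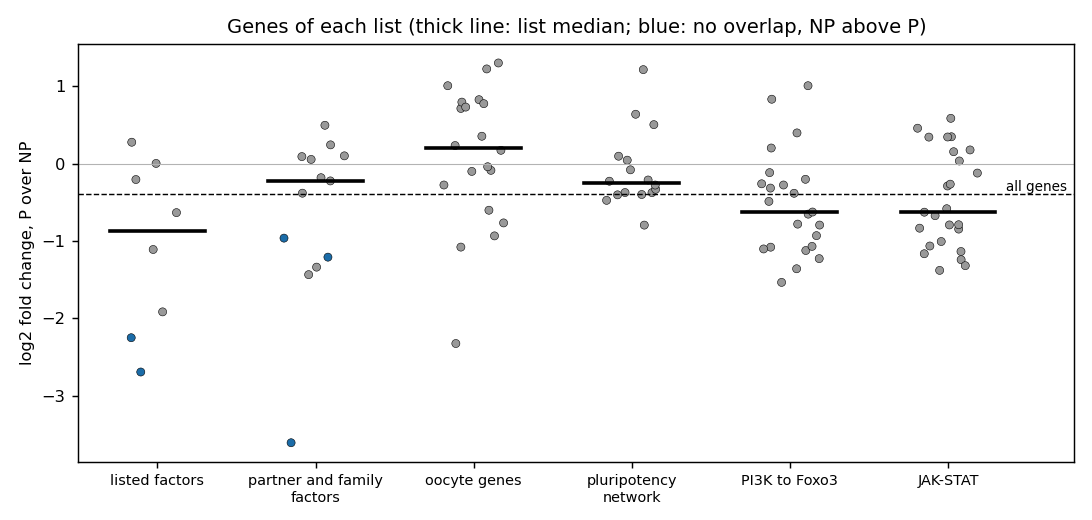
Log2 fold change, P over NP, of the tested genes of 6 lists, with a thick line for the median of each list, a dashed line for the median of all genes, and blue points for genes whose 4 NP values lie above their 4 P values. Medians range from −0.87 for the listed factors to 0.20 for the oocyte genes, and blue points occur in the first 2 lists.

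In the 3′ UTRs, the members without CPE letters that were tested were Nobox, Figla and Pou5f1, with log2 fold changes of −2.25, −2.69 and −1.11, and the 5 with them ranged from −1.92 (Sohlh2) to 0.28 (Foxo3). Sohlh2, with 3 copies, had a lower estimate than Pou5f1, which has none. Their 95% intervals overlapped (−3.865 to 0.030 and −2.64 to 0.42), so that these estimates do not rank the 2 members. Over all tested genes the corresponding medians were −0.49 without and −0.36 with CPE letters, and the difference over 8 members was not tested. Nobox, Figla and Pou5f1 also had the shortest 3′ UTRs of the 8, longer than those of 18.7%, 6.53% and 14.3% of the genes, so that length and letters cannot be told apart.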

How the data were processed

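Non-polysomal and polysomal RNA of NEBD-stage oocytes was sequenced in 4 replicates each, after rRNA removal, whole transcriptome amplification from random and oligo-dT primers and Nextera library preparation, which does not mark strand. The authors used Trim Galore 0.4.1 for trimming and HISAT2 2.0.5 for mapping to GRCm38. Gene levels were computed by them in Seqmonk and deposited as linear FPKM values. Their tables of DESeq2 results and of dataset means and ratios hold the authors' own comparison and were not used. Groups and replicate numbers were taken from the sample titles. The paper describes the 4 profiles as independent biological replicates. Nothing in the labels says whether replicates came from separate animals, so p-values measure the spread between these libraries.

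Here log2(FPKM + 1) values of 14292 genes with a mean above 0.1 FPKM in at least 1 dataset were fitted with limma 3.58.1 (R 4.3.3, trended eBayes, Benjamini-Hochberg threshold 0.1), after tests on simulated data. Whole reads were recovered for 13590 of 15585 genes above 0 (tolerance 0.01 read) and fitted with voom as an added alternative. The annotated length served for 6978 of these genes. For the other 6612, the shortest length from 100 to 30000 bases that gave whole reads was taken. Nobox (1901 bases, annotated 2012), Figla (759, annotated 836), Lhx8 and Pou5f1 were among the latter, so their read numbers rest on an inferred length. Limits set by 3 reads cover counting error only. For Sohlh1 and Sox2 they use the annotated length, because the length behind the deposited values was not recovered, and are approximate. Ratios were compared with exact permutation tests (SciPy 1.17.1). 3′ UTRs were those of the APPRIS principal transcript or, failing one, the longest. Near-identical copies were sought with BLASTN 2.17.0, at 90% identity over 200 bases or more. The 10 factors, the pairs of the ratios and the gene lists were chosen with earlier results of these data known. Besides the 10, the text names the 3 genes of each list with the highest mean FPKM, any called, up to 2 with the largest fold change among those without overlap, and the 3 most similar genes of the 3 most abundant factors. Lhx2, Ddx4 and genes at 0 were named after their values were seen.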

Additional observations from a re-analysis of the deposited data

Results flagged for a closer look

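Each dataset of 4 libraries was examined for a library far from the others, by the gap to its neighbour divided by the range, against Dixon's critical value for 4 values, over 21 sets of values of the 10 factors and the ratios. About 1 in 20 such sets would pass by chance if values were normally distributed. The FPKM values and ratios were taken here without a log2 transform, and their distribution was not tested. Pou5f1 in P passed, with P4 at 45.2 FPKM against 13.2 FPKM in the next library (gap over range 0.839). Sox2 in NP passed because NP1, at 0.128 FPKM, was the only library above 0.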

How the results depend on the processing

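No factor and no gene of the pathway lists was called under any of the 16 alternatives. Over all genes, 3 were called, 5 with a pseudocount of 0.1 or a mean above 1 FPKM, 0 without a filter, with quantile normalization or with scaling to one median FPKM, 20 without a trend, 0 to 5 without one library (0 without NP1, NP2, NP3, NP4 or P3, each in turn), and 124 of 12899 with voom on recovered reads. Unadjusted p lay below 0.05 for 1422 genes (68 higher and 1354 lower in P), against 942 (364 and 578) with quantile normalization and 1127 (534 and 593) with median scaling. Same-numbered NP and P libraries deviated together at correlations of 0.139, 0.0518, 0.251 and 0.155. Each P library correlated best with the NP library of its own number, whereas NP2 correlated best with P1 (0.136). Each gradient gave an NP and a P pool, so the design is paired by gradient. The labels do not say that a number marks one gradient. The main fit and the permutation test over 70 assignments therefore treated the libraries as unpaired and leave out this link. With the replicate block 1 gene was called, and the Nobox to Sall4 ratio (log2 difference −2.25) had p = 0.125, the smallest that 4 pairs allow in the exact test. Without one library this difference was −2.63 to −1.79, with exact p = 0.0571. The sign turned for Lhx8 with median scaling (0.23) and without P2 (range over single libraries −0.99 to 0.080), for Sall4 with voom (−0.14) and without NP1, NP2, P2 or P4 (−0.28 to 0.30), and for Stat3 with quantile normalization (0.26), median scaling (0.63) and without P2 or P4 (−0.88 to 0.28). The cause was not tested. Depth limits Figla, Sohlh2, Sohlh1 and Sox2, which rest on few reads.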
